A study of Mus musculus with 8 samples.

Results

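The genes described here encode 10 proteins of the muscle Z-disc and its LIM-domain partners: Actn2, Actn3, Myoz1, Myoz2, Myot, Xirp2, Ankrd2, Csrp3, Fhl1 and Fhl3. They were taken by symbol, each from the probe set whose platform annotation carries that symbol alone, out of 19938 genes named on the array. Each of the 10 had 1 such probe set, so no choice between probe sets was needed. RNA was measured on 8 Affymetrix Mouse Gene 1.0 ST arrays in 4 groups of 2: muscle and cerebellum of SCA17 knock-in (KI) mice (replicates 94 and 97) and of wild-type (WT) mice (replicates 95 and 96), all aged 3 months. The study's design text names the muscle as TA, the tibialis anterior of the lower leg. In SCA17, an inherited ataxia, the CAG repeat of the gene for TBP (the TATA-binding protein) is lengthened, and a knock-in carries such an allele at the gene's own locus. For these mice the sources used here give no repeat length, zygosity, strain or sex. The study text names 3 mice per genotype and does not say whether an array holds 1 animal, so p-values measure the spread between arrays, which may be technical.

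The Z-disc is the boundary between neighbouring sarcomeres, where actin filaments of opposite polarity are crosslinked by alpha-actinin. Scaffold proteins such as the calsarcins (Myoz genes) and myotilin (Myot) bind alpha-actinin there, and the calsarcins also bind calcineurin, the calcium-activated phosphatase that acts on NFAT transcription factors. LIM-domain proteins (Csrp3, Fhl1, Fhl3) and the ankyrin-repeat protein Ankrd2 are found at the sarcomere and in the nucleus. Several of these genes are fibre-type selective in adult mouse muscle: Actn3 and Myoz1 belong to fast fibres, Myoz2, Ankrd2 and Csrp3 to slow fibres and, for Myoz2 and Csrp3, the heart.

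The tissue labels were checked against defining markers. All 8 skeletal muscle markers lay at or above the 40th percentile of at least 2 muscle arrays. By the same rule all 8 passed in cerebellum and 5 of the 8 cerebellum markers passed in muscle, so it does not separate the tissues. The summed linear signal of the skeletal muscle markers was 19900 to 27600 on muscle arrays against 591 to 661 on cerebellum arrays. The 8 cerebellum markers summed to 9540 to 14400 in cerebellum and to 245 to 279 in muscle. Log2 array medians ran from 5.4 to 5.51. Both arrays of a group correlated with r from 0.977 to 0.989 over probe sets, which are not independent replicates. The number of arrays limits the precision of every value below.

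In KI muscle, Fhl3 fell 2.5-fold and Actn3 fell 1.52-fold, and the other 8 genes did not pass an adjusted p of 0.05. Thus 2 of 10 passed, both lower in KI, where 3.55% of the 13933 genes tested in muscle passed in either direction, 2.66% higher and 0.89% lower. The median log2 difference of the 10 genes was -0.17, against 0.03 over all genes tested, with 6 negative and 4 positive differences (45% and 55% of all genes tested). Both KI arrays lay outside the range of the WT arrays for 7 of the 10 (4 below, 3 above), where 50.2% of all genes tested did so (19.9% below, 30.3% above). An unadjusted p under 0.05 was reached by 7 of the 10 and by 20.3% of all genes tested. In bulk RNA, fewer cells of a type and less RNA per cell cannot be told apart.

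**Figure D1:**
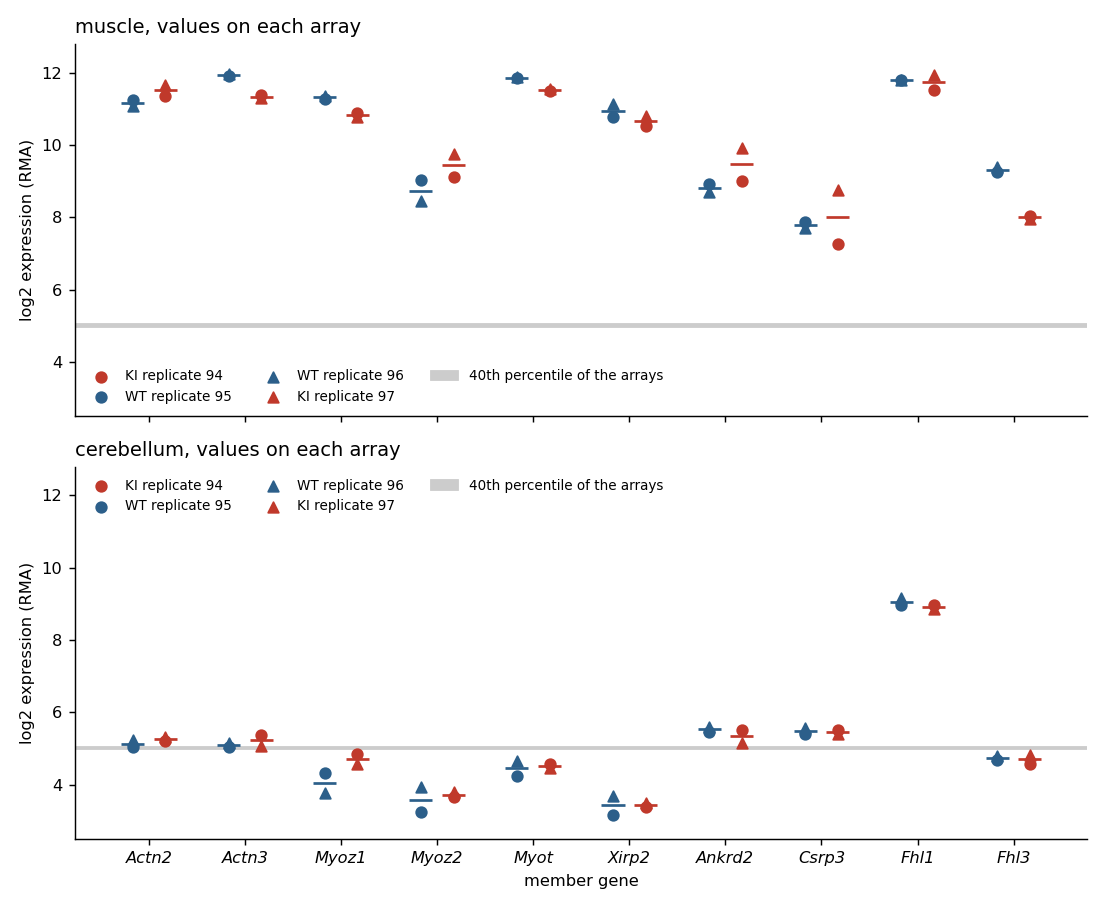
Log2 expression (y axis) of the 10 genes (x axis) on each muscle array (top) and each cerebellum array (bottom). Points are arrays (WT blue, KI red, symbols by replicate), short lines are means of 2 arrays, and the grey band is the range of the arrays' 40th percentiles. Fhl3 shows the widest gap between KI and WT muscle, Csrp3 the widest gap between the 2 KI muscle arrays, and Fhl1 stands well above the band in cerebellum.

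Fhl3 (probe set 10507908, on chromosome 4) encodes a protein built of LIM zinc-finger domains that is expressed in skeletal muscle and binds actin. Its log2 level was 8.04 and 7.97 in KI muscle replicates 94 and 97, and 9.26 and 9.40 in WT replicates 95 and 96. The groups were separated by 1.22 log2 units, while the arrays differed by 0.07 within KI and by 0.14 within WT. The group levels were 8.00 ± 0.05 in KI and 9.33 ± 0.10 in WT (SD, n = 2), a log2 difference of -1.32 ± 0.12 (SE) with adjusted p = 0.00158 in limma. By the size of its fall Fhl3 ranked 12 among the 13933 genes tested. It passed in each of 16 alternative analyses, at adjusted p from 0.000399 to 0.0187, and without any 1 muscle array its difference was between -1.39 and -1.25. In cerebellum Fhl3 was at 4.57 and 4.82 in KI and at 4.68 and 4.78 in WT, below the 40th percentile on all 4 arrays.

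The stretch of DNA just before the Fhl3 start is shown because Fhl3 had the largest difference of the 10, and stretches before 4 other starts are shown beside it, 3 with a TATA hexamer near the start and 1 without, since TBP binds TATA elements. Promoter windows from RefSeq (GRCm38.p6) were matched for 7 of the 10 genes, with 9 windows. Actn3, Myoz1 and Myot had no entry. Each sequence runs 5′ to 3′ on the gene's strand and ends at the base before the annotated start. In Fhl3 (250 bases) capitals mark GGGCGG on either strand, and in the others (100 bases) they mark TATAAA or TATATA on the gene's strand. Fhl3 lies at chr4:124700449-124700698 (+), Ankrd2 at chr19:42035927-42036026 (+), Myoz2 at chr3:123034988-123035087 (-), Csrp3 at chr7:48848052-48848151 (-) and Actn2 at chr13:12340733-12340832 (-).
Fhl3: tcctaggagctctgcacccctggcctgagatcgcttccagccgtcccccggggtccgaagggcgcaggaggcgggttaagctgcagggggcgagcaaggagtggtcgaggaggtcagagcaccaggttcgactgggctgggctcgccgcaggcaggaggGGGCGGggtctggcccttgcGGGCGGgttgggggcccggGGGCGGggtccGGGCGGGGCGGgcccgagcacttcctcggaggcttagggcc
Ankrd2: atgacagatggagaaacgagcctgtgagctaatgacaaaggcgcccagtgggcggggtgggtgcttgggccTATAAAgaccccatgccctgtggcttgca
Myoz2: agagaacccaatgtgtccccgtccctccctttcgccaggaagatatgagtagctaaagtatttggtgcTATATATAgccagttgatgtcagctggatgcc
Csrp3: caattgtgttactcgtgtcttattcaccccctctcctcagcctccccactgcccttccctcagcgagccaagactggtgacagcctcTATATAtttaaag
Actn2: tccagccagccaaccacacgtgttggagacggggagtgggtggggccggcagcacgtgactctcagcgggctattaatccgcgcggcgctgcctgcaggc

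Motifs were searched on both strands of the 250 bases before each start, for the 9 windows and for all 32851 windows of the table. GGGCGG, the GC box, occurred 5 times before Fhl3, and only the pair of copies nearest the start overlap. It was in 32.7% of all windows at least once, among them those of Ankrd2 and Actn2. The Fhl3 window was 74% G or C, against a median of 52.4%, and 95.4% of windows were at or below it. It held no TATAAA (12.4% of all windows), no TATATA (5.25%), no CANNTG (the E-box, 66.2%), no MEF2 site (2.92%) and no CArG box (1.47%). Ankrd2 had TATAAA beginning 29 bases before its start. Myoz2 had overlapping TATATA copies beginning 32 and 30 bases before the start, inside a MEF2 site that begins at 33. The upstream Csrp3 window had TATATA beginning 13 bases before the start, and Actn2 and Xirp2 had neither hexamer in 250 bases. Fhl1 had TATAAA beginning 156 bases before 1 of its 2 starts. None of the genes with either hexamer (Ankrd2, Myoz2, Csrp3, Fhl1) passed for genotype in muscle, where 3.55% of all genes tested did. Of the 7 genes with a window only Fhl3 passed, and a link between the hexamers and genotype was not tested. The motifs are matches of letters, not measured sites.

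The alpha-actinins crosslink actin at the Z-disc, with Actn3 in fast fibres and Actn2 in all fibres. Actn3 (probe set 10464836) was at 11.38 and 11.29 in KI replicates 94 and 97, and at 11.91 and 11.97 in WT replicates 95 and 96. All KI values lay below all WT values, by at least 0.53, and the difference was -0.60 ± 0.13 (SE), adjusted p = 0.0372. The call was lost without any 1 muscle array (adjusted p from 0.106 to 0.144) and without WT cerebellum replicate 95 or 96 (0.0718 each). It was also lost with no filter (0.0701), over all probe sets (0.101), after repeated quantile normalisation (0.0687) and with the muscle arrays alone (0.0662), while the difference stayed between -0.64 and -0.53. Actn2 (probe set 10407742) was at 11.37 and 11.67 in KI and 11.25 and 11.08 in WT, with both KI arrays above both WT arrays by at least 0.12. Its difference of 0.36 ± 0.14 (SE) did not pass (adjusted p = 0.185).

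The log2 difference Actn2 minus Actn3 was taken within each array, which shows unequal change of the probe sets and not which RNA is more abundant. It was -0.01 and 0.37 on the KI muscle arrays and -0.66 and -0.89 on the WT arrays. The KI mean was higher by 0.96, or 1.94-fold, with no overlap between genotypes. With 2 arrays against 2, the two-sided exact permutation p was 0.333, the smallest this design allows.

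The calsarcins showed opposite signs. Myoz1, the calsarcin of fast fibres (probe set 10417933), was at 10.88 and 10.79 in KI and at 11.28 and 11.36 in WT, with a difference of -0.48 ± 0.18 (SE; adjusted p = 0.176). Myoz2, the calsarcin of slow fibres and heart (probe set 10501895), was at 9.12 and 9.76 in KI and at 9.02 and 8.45 in WT, with a difference of 0.70 ± 0.28 (SE; adjusted p = 0.198). Neither passed. Genotypes did not overlap in either gene, but for Myoz2 the nearest KI and WT arrays were only 0.09 apart. Myoz2 minus Myoz1 within an array was -1.77 and -1.03 in KI and -2.26 and -2.90 in WT, so the KI mean was higher by 1.18 (2.27-fold; two-sided exact permutation p = 0.333, the smallest possible). Without KI muscle replicate 97 the Myoz2 difference was 0.38, and without KI muscle replicate 94 it was 1.02.

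Myotilin and the Xin-repeat protein Xirp2, which both bind actin-based structures of the Z-disc and its surroundings, were among the genes that did not pass. Myot (probe set 10455461) was at 11.49 and 11.56 in KI against 11.85 and 11.89 in WT, a difference of -0.35 ± 0.14 (SE; adjusted p = 0.209) with no overlap between genotypes. Xirp2 (probe set 10472426) was at 10.54 and 10.82 in KI and at 10.77 and 11.14 in WT. Its genotypes overlapped, and the difference was -0.28 ± 0.19 (SE; adjusted p = 0.459).

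**Figure D2:**
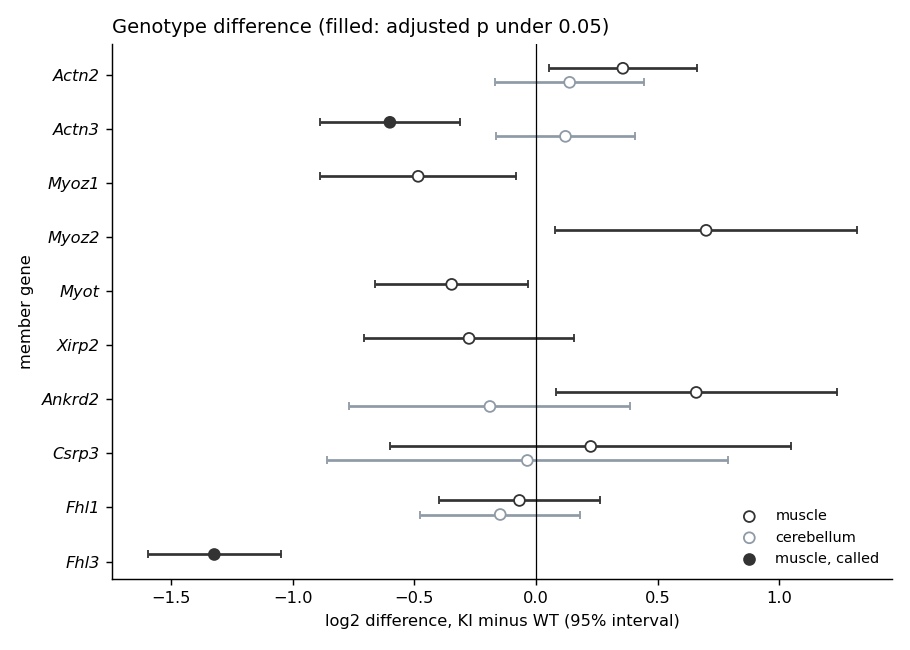
Log2 difference KI minus WT (x axis) for each gene (y axis) in muscle (dark) and, for the 5 genes tested there, in cerebellum (grey). Bars are 95% intervals from the limma fit, not adjusted for the number of genes, and filled points passed an adjusted p of 0.05. The muscle intervals of Fhl3 and Actn3 lie farthest below 0, and each cerebellum interval includes 0.

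Ankrd2 and Csrp3 were high on 1 of the 2 KI muscle arrays. Ankrd2, a muscle ankyrin-repeat protein induced by stretch (probe set 10463189), read 9.02 (KI 94) and 9.93 (KI 97), with WT at 8.93 and 8.70. Csrp3, the muscle LIM protein (probe set 10563770), read 7.27 (KI 94) and 8.77 (KI 97), with WT at 7.87 and 7.72. The WT arrays thus lay between the KI arrays for Csrp3, and below both for Ankrd2. The KI arrays differed by 1.5 log2 units in Csrp3, by 0.92 in Ankrd2 and by 0.65 in Myoz2, always with replicate 97 higher. Of all genes tested in muscle, 0.158% had a gap between the KI arrays as wide as that of Csrp3, 0.567% as wide as that of Ankrd2 and 1.80% as wide as that of Myoz2.

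Neither gene passed over all arrays: the difference was 0.66 ± 0.26 for Ankrd2 (SE; adjusted p = 0.195) and 0.23 ± 0.37 for Csrp3 (adjusted p = 0.782). Leaving out 1 muscle array leaves 1 array in that group, which the fit assumes to vary like the other groups. Without KI muscle replicate 94, when KI muscle was replicate 97 alone, Ankrd2 was at 1.12 (adjusted p = 0.0317) and Csrp3 at 0.98 (0.0235). Without KI muscle replicate 97 Ankrd2 was at 0.20 (0.638) and Csrp3 turned to -0.53 (0.132). The KI muscle arrays also differed in markers of other cells. The 5 tendon markers summed to a linear signal of 1630 (KI 94) and 586 (KI 97), with WT at 1180 and 1380, and the 5 fibroblast markers to 4110 and 2590, against 2910 and 3140. None of these 10 markers was called in muscle, with 1 at an unadjusted p under 0.05 in limma (20.3% of all genes tested). All 5 of each list lay at or above the 40th percentile of at least 2 muscle arrays. In cerebellum 4 of each list did so too, so this level alone does not show that a cell type is present. The 10 slow-fibre genes summed to 1500 and 1700 in KI and to 1730 and 1220 in WT. A linear sum weighs genes of high signal most. These included Tpm3 and Atp2a2, lower in muscle than in cerebellum (log2 -0.51 and -2.97), so the sum is a poor gauge of slow fibres. Among the slow-fibre genes Casq2 was at log2 9.12 and 9.42 in KI and at 7.57 and 7.57 in WT, while 7 of the 10 had negative differences. In KI 94 and KI 97, Tnni1 read 5.577 and 6.314, Tnnc1 5.770 and 6.335 and Myl2 4.846 and 5.355, while Myl3, Tnnt1 and Atp2a2 were lower in KI 97. The part of these cells and fibres in the levels of Ankrd2, Csrp3 and Myoz2 was not tested.

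Fhl1, another LIM-domain protein and a gene of inherited myopathies, carried on the X chromosome (probe set 10599736), was at 11.53 and 11.95 in KI muscle and at 11.80 and 11.82 in WT. The genotypes overlapped, and the difference was -0.07 ± 0.15 (SE; 95% interval -0.40 to 0.26; adjusted p = 0.844). Fhl3 minus Fhl1 within an array was -3.49 and -3.98 in KI and -2.55 and -2.42 in WT, a KI mean lower by 2.39-fold (log2 -1.25; two-sided exact permutation p = 0.333, the smallest possible).

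**Figure D3:**
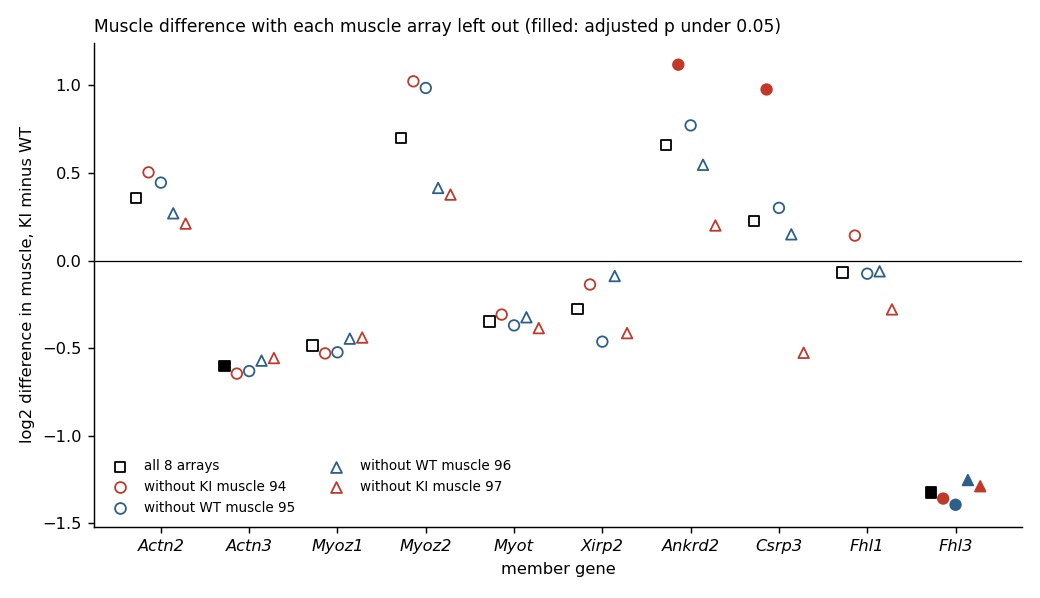
Log2 difference in muscle, KI minus WT (y axis), for each gene (x axis) with all 8 arrays (squares) and with each muscle array left out in turn (circles and triangles, red for KI and blue for WT). Filled symbols passed an adjusted p of 0.05. Fhl3 is filled throughout, Actn3 only with all 8 arrays, and Ankrd2 and Csrp3 only without KI replicate 94, while the sign of Csrp3 turns without KI replicate 97.

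The genes tested in both tissues, Actn2, Actn3, Ankrd2, Csrp3 and Fhl1, were all called higher in muscle than in cerebellum over the mean of both genotypes (adjusted p from 6.01e-11 to 1.61e-05 in limma). Of 14708 genes tested, 11% were called higher in muscle at an adjusted p of 0.05 and at least 2-fold, and these genes were chosen as muscle proteins. Actn3 was 89.2-fold higher, Actn2 70.6-fold, Ankrd2 13.1-fold, Fhl1 6.89-fold and Csrp3 5.43-fold. Of these, only Fhl1 stood well above the 40th percentile in cerebellum, so the folds of the others are less certain. The other 5 genes (Myoz1, Myoz2, Myot, Xirp2 and Fhl3) were below the 40th percentile on all 4 cerebellum arrays and entered the comparison only through muscle, so their calls were fixed by the filter and are not counted here. Against the 40th percentile of each cerebellum array, Myot was at least 103-fold higher in muscle, Myoz1 at least 67.3-fold, Xirp2 at least 56.2-fold, Myoz2 at least 17-fold and Fhl3 at least 12.6-fold.

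In cerebellum the other 5 genes (Actn2, Actn3, Ankrd2, Csrp3 and Fhl1) reached the 40th percentile on all 4 arrays and were tested. Of these, Fhl1 was at 8.975 and 8.861 in KI and at 8.979 and 9.151 in WT. Actn2, Actn3, Ankrd2 and Csrp3 were between 5.04 and 5.58, where the 40th percentiles of the cerebellum arrays were 4.97 to 5.05. A change in genes so near that level could be missed. None of the 5 passed for genotype in limma (0 also at an unadjusted p under 0.05), where 0.205% of 13641 genes tested did (5.33% at an unadjusted p under 0.05). The genotypes did not overlap for 1 of the 5, Fhl1, whose nearest KI and WT arrays differ only in the third decimal (KI below), and for 35.3% of all genes tested (20% below). The differences ran from -0.19 ± 0.26 for Ankrd2 to 0.14 ± 0.14 for Actn2 (SE; adjusted p from 0.998 to 1.00). Myoz1, not tested there, was at 4.86 and 4.57 in KI cerebellum and 4.32 and 3.76 in WT, all below the 40th percentile of those arrays.

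The genotype difference was also compared between the tissues. For Actn2, Actn3, Ankrd2, Csrp3 and Fhl1, the genes tested in both, the comparison did not pass, with Actn3 at -0.72 ± 0.18 (SE, adjusted p = 0.144) and Ankrd2 at 0.85 ± 0.36 (0.348). All of these but Fhl1 lay only a little above the 40th percentile in cerebellum, where a change could be missed. In the same fit Fhl3 had -1.29 ± 0.17 (adjusted p = 0.0350), but its probe set lay below the 40th percentile on all 4 cerebellum arrays, where a change could not be seen, so this value restates the fall in muscle. It also passed in only 5 of 16 alternatives, and without any 1 of the 8 arrays it did not (0.0587 to 0.162). Myoz1, likewise below the 40th percentile in cerebellum, was at -1.16 ± 0.25 (0.108). Over all 14708 genes 0.143% passed, and 13.8% had an unadjusted p under 0.05 in limma. Among the genes tested in both tissues, Actn3 (0.0029) and Ankrd2 (0.043) did so. Fhl3 and Myoz1 did too, but they entered only through muscle and are not set against that share.

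Other genes of the Z-disc moved in both directions in KI muscle. Of 23 scaffold genes tested, 2 rose and 1 fell (2.66% and 0.89% of all genes tested did), with a median difference of -0.01. Palld, the actin-bundling palladin, was at 8.82 and 8.58 in KI and 7.89 and 8.09 in WT (0.71 ± 0.12, SE; adjusted p = 0.0191). Flnc, the muscle filamin, was at 10.34 and 10.62 against 9.72 and 9.79 (0.72 ± 0.15, adjusted p = 0.0306). Tcap, telethonin, which ties titin to the Z-disc, was at 8.90 and 9.26 against 9.87 and 9.80 (-0.75 ± 0.14, adjusted p = 0.0210). Smpx, a small muscle protein, was at 0.55 ± 0.13 and did not pass (0.0573).

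Flnc was not called without any 1 muscle array (0.0527 to 0.154). Palld was not called without KI muscle replicate 94 (0.0946) or WT muscle replicate 95 (0.116). Tcap was not called without KI muscle replicate 94 (0.0946), WT muscle replicate 95 (0.118) or WT muscle replicate 96 (0.0708). All 3 lost their calls over all probe sets (0.0734 to 0.0983) and in a fit of the muscle arrays alone (0.0647 to 0.0735), and Flnc also with no filter (0.0592).

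Among 18 other LIM-domain and muscle ankyrin-repeat genes, 2 rose and 1 fell (2.66% and 0.89% of all genes tested did), with a median difference of 0.02. Ankrd23, a muscle ankyrin-repeat protein of the same family as Ankrd2, was at 10.69 and 10.93 in KI and 11.58 and 11.91 in WT (-0.94 ± 0.14, adjusted p = 0.0127). Its relative Ankrd1 was at -0.50 ± 0.24 and did not pass (0.272; named after its value was seen). Lims1, the LIM protein PINCH of integrin adhesions, was at 8.92 and 9.24 against 8.14 and 8.05 (0.98 ± 0.16, adjusted p = 0.0149). Csrp1, a relative of Csrp3 found in smooth muscle, was at 8.79 and 8.71 against 8.24 and 8.20 (0.53 ± 0.11, adjusted p = 0.0337). Lpp, a LIM protein of focal adhesions, was at 0.55 ± 0.14 and did not pass (0.0732).

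Csrp1 was not called without any 1 muscle array (0.102 to 0.144) nor without WT cerebellum replicate 95 or 96 (0.0704 each). With 1 muscle array left out, Lims1 was called only without KI muscle replicate 94, with 0.0746 without WT replicate 95, 0.0684 without WT replicate 96 and 0.0810 without KI replicate 97. Ankrd23 was not called without KI muscle replicate 94 (0.0652) or WT muscle replicate 96 (0.0575). Over the 16 alternatives Csrp1 was called in 6, Lims1 in 12 and Ankrd23 in 13. Each also lost its call in settings other than leaving out 1 array (limma adjusted p up to 0.0921, 0.0725 and 0.0640). The 5 smooth muscle markers summed to 859 and 858 in KI muscle and to 806 and 728 in WT. None was called, with 0 at an unadjusted p under 0.05 in limma (20.3% of all genes tested). Their part in the rise of Csrp1 was not tested.

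None of 11 calcineurin and NFAT genes passed in limma, with 3 at an unadjusted p under 0.05 (20.3% of all genes tested) and a median difference of -0.04. Rcan1, a calcineurin regulator that is itself induced by the pathway, was at 0.38 ± 0.11 (adjusted p = 0.102). The catalytic subunits Ppp3cc (-0.28 ± 0.10, 0.159) and Ppp3cb (-0.22 ± 0.12, 0.350) and the transcription factor Nfatc4 (-0.34 ± 0.14, 0.199) did not pass either.

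**Figure D4:**
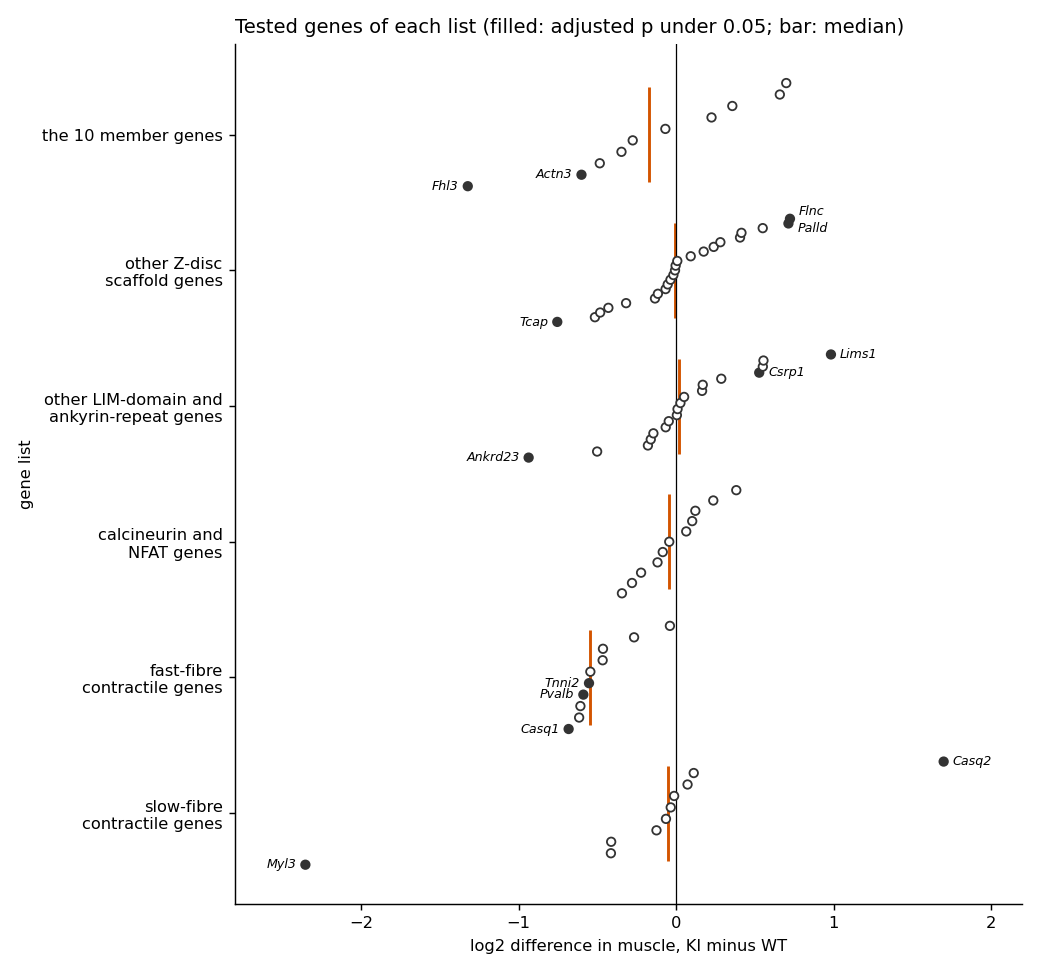
Log2 difference in muscle, KI minus WT (x axis), of every tested gene of 6 lists (y axis). Points are genes, filled where the adjusted p was under 0.05 and then named, and orange bars are list medians. The fast-fibre genes all lie below 0, while the Z-disc and LIM-domain lists spread to both sides.

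Contractile genes of the fibre types gave the setting for Actn3 and Myoz1. Of 10 fast-fibre genes 3 fell (0.89% of all genes tested did), all 10 had negative differences (45% of all genes tested did) and the median was -0.55. Casq1, the fast calsequestrin (-0.68 ± 0.12, adjusted p = 0.0199), Tnni2, fast troponin I (-0.55 ± 0.12, 0.0409), and Pvalb, parvalbumin (-0.59 ± 0.13, 0.0439), were the 3. Leaving out any 1 muscle array ended the call of each (0.0727 to 0.194), as did leaving out any 1 cerebellum array for Tnni2 (0.0600 to 0.0762) and WT cerebellum replicate 95 or 96 for Pvalb (0.0778 each). Over the 16 alternatives Casq1 was called in 10, Tnni2 in 5 and Pvalb in 6. Each also lost its call in settings other than leaving out 1 array (limma adjusted p up to 0.0745, 0.109 and 0.114). Pvalb had a like difference in cerebellum (-0.57 ± 0.13, SE) that did not pass (limma adjusted p = 0.310), so its fall was not particular to muscle. Of the 7 fast-fibre genes tested in cerebellum 4 had positive and 3 negative differences. Mylpf, the fast regulatory light chain, was at -0.62 ± 0.18 in muscle (0.0998). The fast-fibre list summed to 27800 and 29400 in KI muscle and to 36900 and 40100 in WT. The 8 skeletal muscle markers, which share Myh4 and Tnni2 with that list, summed to 19900 and 20800 against 26100 and 27600. The part of these genes in the values of Actn3 and Myoz1 was not tested.

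Of 10 slow-fibre genes 1 rose and 1 fell (2.66% and 0.89% of all genes tested did), with a median of -0.05. Casq2, the slow and cardiac calsequestrin, rose by 1.70 ± 0.16 (adjusted p = 0.00158), and Myl3, the slow essential light chain, fell by 2.35 on the log2 scale (SE 0.30, adjusted p = 0.00638). Myl3 was at 6.11 and 5.90 in KI muscle and at 8.95 and 7.77 in WT. Without any 1 muscle array its difference was between -2.95 and -1.76. Myl3 was not called over all probe sets (0.0532). Myl2 (-0.41 ± 0.17, 0.210) and Myh7 (-0.41 ± 0.24, 0.371) did not pass. Negative differences were found in 7 of the 10, and in 45% of all genes tested.

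Some genes had patterns close to those of the members. Likeness was measured as the root mean square difference of log2 values over the 8 arrays, each gene centred on its own mean. Because the KI and WT muscle arrays enter this measure, the genotype differences of the genes it finds are a description, with no test. Nearest to Fhl3 were Lrrc30 (0.235), Lrtm1 (0.247) and Rxrg (0.25), the retinoid X receptor gamma. Their muscle differences, KI minus WT, were -0.85, -0.95 and -0.78, against -1.32 for Fhl3. Muscle minus cerebellum, they were at 3.78, 4.15 and 3.72, against 3.95 for Fhl3. The gap between the tissues enters the measure, so likeness need not mean a like genotype difference. Nearest to Actn3 were Mybpc2 (0.179), the fast myosin-binding protein C, Asb12 (0.204) and Acta1 (0.215), skeletal actin, with differences of -0.42, -0.37 and -0.43. Nearest to Myoz1 were Mybpc2 again (0.271), Ppp1r3a (0.275; difference -0.48) and Actn3 itself (0.282).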

How the data were processed

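The values analysed are log2 expression levels as deposited; the submitters' processing notes name GCOS and RMA. The sources used here state neither versions nor a genome build nor the set of arrays normalised jointly. The table held 35556 probe sets, of which 21789 carried 1 gene symbol in the platform annotation (23410 listed), 1621 several and 12146 none. The brightest probe set stood for each of 19938 genes. A gene was tested in a tissue if at least 2 of its 4 arrays reached the 40th percentile of the same array (13933 in muscle, 13641 in cerebellum, 14708 in either). A mean for each of the 4 groups was fitted with limma 3.58.1 (R 4.3.3) and eBayes (4 residual and 5.30 prior degrees of freedom), and p-values were adjusted by Benjamini-Hochberg over all genes tested at a threshold of 0.05. Errors are SE from the fit or SD over 2 arrays. Summed signals add antilogged values. Bounds on folds against cerebellum, added after the values were seen, raise readings under the 40th percentile of an array to it. The procedure was tested on simulated data.

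Every one of the 10 genes was described. From each other pathway or fibre list the 4 genes with the smallest p in muscle were named, and for the 3 members with the smallest p the 3 most alike genes. The members and lists were chosen with earlier results of these data known. Some listed genes are not reported here. The marker lists without a value in the text are given in the closing part. The 16 alternatives per result changed the filter, probe set rule, normalisation, variance prior, arrays fitted and replicate block, or left out 1 array.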

Additional observations from a re-analysis of the deposited data

Results flagged for a closer look

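The test of the difference between tissues gave -1.29 on the log2 scale for Fhl3 (adjusted p = 0.0350 in limma). Its level in cerebellum lay below the 40th percentile of all 4 arrays, where a genotype change could not be seen, so the value does not show that the tissues differ. The call was also lost in 11 of 16 alternatives, including each array left out.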

How the results depend on the processing

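Of the 10 genes, 2 were called in muscle over all arrays, and 1 (Fhl3) under each of 4 settings: unfiltered, all probe sets, repeated quantile normalisation, muscle arrays alone; leaving out 1 array gave 1 to 3. Over all genes the muscle count of 495 became 246 unfiltered, 69 across all probe sets, 155 in a fit of muscle arrays alone and 105 to 385 without 1 array. The cerebellum count of 28 became 18 with no filter, 6 over all probe sets and 4 to 29 without 1 array, with 0 members called in each. For the difference between tissues 1 member and 21 genes passed; this became 0 members and 3 genes with no filter, 0 and 0 over all probe sets, and 0 members with 0 to 23 genes without 1 array, and 63 genes with trended and robust variances. The muscle against cerebellum count stayed at 10 of 10, of which the filter fixed 5, with 3797 to 3854 genes without 1 array. The cause of these changes was not tested.

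Replicate numbers recur between tissues, but whether they name animals is not stated, and the arrays were not treated as paired. Deviations of same-numbered arrays correlated by 0.0566 in KI and -0.0965 in WT. With 2 arrays per group this is 1 value per genotype, which cannot show whether arrays share an animal. With the number as a fixed replicate block Fhl3 no longer passed for the difference between tissues (0 members, 14 genes; adjusted p = 0.0529); as a random replicate block it did (1 member, 18 genes), and in muscle 2 members and 494 genes passed. Signs turned when 1 array was left out for Csrp3 in muscle (-0.53 to 0.98; negative without KI replicate 97) and in cerebellum (-0.11 to 0.043; positive without WT replicate 96 or KI replicate 97), Fhl1 in muscle (-0.28 to 0.14; positive without KI replicate 94) and Actn3 in cerebellum (-0.039 to 0.28; negative without KI replicate 94). For the difference between tissues they turned for Csrp3 (-0.49 to 1.01) and Fhl1 (-0.13 to 0.29), both without KI muscle replicate 97, and for Fhl1 also without WT cerebellum replicate 96. The within-array difference Actn2 minus Actn3 ranged from 0.77 to 1.15, Myoz2 minus Myoz1 from 0.82 to 1.55 and Fhl3 minus Fhl1 from -1.50 to -1.01 without 1 muscle array. Only 2 arrays per group limit every error given, and levels below or near the 40th percentile limit folds against cerebellum.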

Other observations

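No gene in the marker lists of other cells was called in muscle (3.55% of all genes tested were), and with so few genes per list this says little. The 5 macrophage markers all had positive differences (55% of all genes tested did), with a median of 0.29. None was called, and 1 had an unadjusted p under 0.05 in limma (20.3% of all genes tested). They summed to 365 and 281 in KI muscle against 250 and 248 in WT. The 5 endothelial markers summed to 1150 and 1470 against 1200 and 1360, and the 4 adipocyte markers analysed to 168 and 170 against 217 and 156. The 6 regenerating fibre and satellite cell markers summed to 332 and 364 against 337 and 322. Of the 5 tested, 2 had an unadjusted p under 0.05 in limma (20.3% of all genes tested) and none was called. The 2 Schwann cell markers analysed summed to 1040 and 843 against 715 and 1040.

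Myoz3, the third calsarcin, was at 8.5 and 8.33 in KI muscle and 8.92 and 8.78 in WT, a difference of -0.43 ± 0.13 (SE) that did not pass (adjusted p = 0.101), and it was named after its value was seen. Xirp1, the relative of Xirp2, was at 8.67 and 8.64 in KI and 8.57 and 7.91 in WT (0.42 ± 0.18, adjusted p = 0.244), also named after its value was seen.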
